A study of Mus musculus with 4 samples.

Results

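The zinc and citrate handling genes examined here are 9 mouse genes: the metallothioneins Mt1 and Mt2, the zinc importers Slc39a1, Slc39a2 and Slc39a3, the zinc exporters Slc30a1, Slc30a2 and Slc30a4, and the citrate carrier Slc25a1. They were chosen by name, as every probe that is not a control and whose gene name in the scanner files equals one of these symbols. All 9 genes were found, with 11 of the 41174 probes and 9 of the 28090 gene names on the array. Prostate RNA was measured on Agilent mouse arrays with 1 dye, Cy3, and 1 array per group. The 4 groups were TRAMP mice given γ-TmT, TRAMP mice given olive oil, C57BL/6 mice given γ-TmT and C57BL/6 mice given olive oil. γ-TmT is a mixture of tocopherols, forms of vitamin E, that is rich in γ-tocopherol. TRAMP mice carry the SV40 early genes driven by the probasin promoter of the rat, so that the transgene is on in prostate epithelial cells and tumours of the prostate arise. All mice were males of 8 weeks on an AIN-76A diet and went without food overnight. They were gavaged once with oil or with 600 mg/kg of γ-TmT, and prostates were taken 12 hours later. Each group had 3 mice. The labels do not say whether an array held 1 mouse or a pool, nor which background strain the TRAMP mice had.

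Zinc is unusually abundant in the prostate. In the human gland the secretory epithelium takes zinc up and holds it, the zinc slows mitochondrial aconitase, and citrate that is not oxidised leaves the cell in the prostatic fluid. Zinc importers of the Zip family bring zinc into the cytosol, exporters of the ZnT family move it out of the cell or into vesicles, and metallothioneins, small proteins rich in cysteine, bind what is in between. In mammals the factor MTF-1 senses zinc and turns on Mt1, Mt2 and the exporter gene Slc30a1 through metal response elements, while glucocorticoids also raise metallothionein mRNA.

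All values below are log2 levels, the processed signal of a probe relative to the 75th percentile of its array, where 0 is that percentile and 1 unit is 2-fold. With n = 1 array per group, a ± after a level or a difference is the scanner software's error of the spots and not a spread between mice, and pairs of arrays were not tested. A level is compared between arrays for 1 probe only, never between genes. Spots well above background made up 63.9% of the array of TRAMP mice after γ-TmT, 70.4% of TRAMP after oil, 68.1% of C57BL/6 after γ-TmT and 74.1% of C57BL/6 after oil, and no spot was saturated. All 4 arrays lay on 1 slide with 1 scan time. Of 15 markers of prostate secretory epithelium, 14 were well above background on every array, the exception being Folh1, which was above it only in C57BL/6 after oil and is named outside the rule for named genes.

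The probes that carry the results on zinc binding and vesicle loading, and the 2 probes of Slc39a1 that went apart, are shown first because what a probe reads sets what its value means. Each is 60 bases, printed 5′ to 3′ from the scanner files, with positions on mm9. Which exon or UTR each probe falls in was not examined here.
Mt1, chr8:96704011-96704070, plus strand: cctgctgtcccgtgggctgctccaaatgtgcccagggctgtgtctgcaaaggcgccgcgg
Mt2, chr8:96697371-96697430, plus strand: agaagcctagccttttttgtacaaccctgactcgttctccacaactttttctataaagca
Slc30a2, chr4:133910214-133910273, plus strand: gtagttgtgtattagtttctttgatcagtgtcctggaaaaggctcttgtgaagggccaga
Slc39a1, brighter probe, chr3:90057295-90057354, plus strand, the strand of the gene: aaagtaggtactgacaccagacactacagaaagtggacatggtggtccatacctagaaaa
Slc39a1, dimmer probe, chr3:90056374-90056433, minus strand, opposite to the gene: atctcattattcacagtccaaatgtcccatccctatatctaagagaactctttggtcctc
Mt1 and Mt2 lie side by side on chromosome 8 and each has a probe of its own, with a GC share of 68.3% for Mt1 and 40% for Mt2.

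The metallothioneins were lower on the TRAMP arrays and higher on the γ-TmT arrays. Mt1 stood at 3.70 in TRAMP after γ-TmT, 2.45 in TRAMP after oil, 5.56 in C57BL/6 after γ-TmT and 4.59 in C57BL/6 after oil. After oil, Mt1 was 4.41-fold lower in TRAMP than in C57BL/6, a log2 difference of -2.14 ± 0.07. After γ-TmT it was 3.61-fold lower (-1.85 ± 0.07). Mt1 after γ-TmT was 2.39-fold higher than after oil in TRAMP (1.25 ± 0.07) and 1.95-fold higher in C57BL/6 (0.97 ± 0.06). Each difference was many times the scanner error, so the order of the 4 arrays was C57BL/6 γ-TmT, C57BL/6 oil, TRAMP γ-TmT and TRAMP oil, high to low. The unscaled signal, as the mean of 10 spots, was 956 after γ-TmT and 739 after oil in TRAMP. In C57BL/6 it was 5596 after γ-TmT and 3892 after oil.

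Mt1 is the only one of the 9 genes whose probe was printed 10 times on each array, which shows the technical scatter directly. Spots used ranged between 3.55 and 3.95 in TRAMP after γ-TmT (9 spots), 2.12 and 2.78 in TRAMP after oil (9 spots), 5.26 and 5.96 in C57BL/6 after γ-TmT (10 spots), and 4.32 and 4.82 in C57BL/6 after oil (10 spots). The spots of the 4 arrays did not overlap. The 1 spot marked as an outlier on each TRAMP array, at 4.05 after γ-TmT and 1.91 after oil, also lay outside the range of every other array. These spots share 1 hybridisation per group, so they show how well an array was read and not how mice vary.

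**Figure D1:**
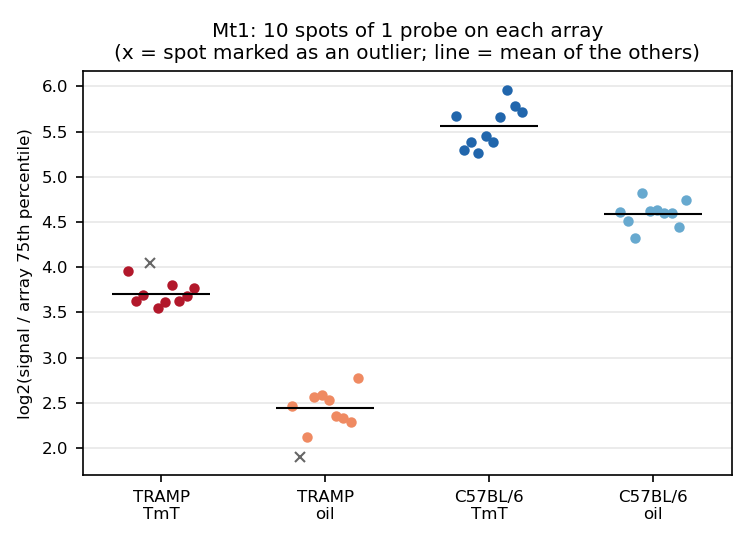
Level of Mt1 (log2 signal over the array's 75th percentile, vertical axis) in each of the 10 spots of its probe, by array; a cross is a spot marked as an outlier and the line is the mean of the other spots. The used spots span 3.55 to 3.95 in TRAMP after γ-TmT, 2.12 to 2.78 in TRAMP after oil, 5.26 to 5.96 in C57BL/6 after γ-TmT and 4.32 to 4.82 in C57BL/6 after oil, with no overlap between arrays.

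Mt2, the other widely expressed metallothionein, stood in the same order of arrays. Its levels were 7.94 in TRAMP after γ-TmT, 6.41 in TRAMP after oil, 8.68 in C57BL/6 after γ-TmT and 8.29 in C57BL/6 after oil. Mt2 was 3.70-fold lower in TRAMP than in C57BL/6 after oil (-1.89 ± 0.20) and 1.68-fold lower after γ-TmT (-0.75 ± 0.20). The γ-TmT level of Mt2 was 2.89-fold higher than the oil level in TRAMP (1.53 ± 0.20) and 1.31-fold higher in C57BL/6 (0.39 ± 0.20). The C57BL/6 difference depended on the scaling between arrays. It was 0.12 with quantile normalization, within the scanner error, and the unscaled signal was 48267 after γ-TmT and 50532 after oil. In TRAMP the unscaled signal of Mt2 was 17452.1 after γ-TmT and 11765.5 after oil. The array of TRAMP after oil stood lowest, and the other 3 lay within 0.75 of each other. Whether the γ-TmT difference of Mt2 differed between TRAMP and C57BL/6 was not tested, because the design has no replicate for it.

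Both metallothionein promoters hold several copies of the metal response element core, the binding word of MTF-1, and are printed because the 2 genes stood in one order of arrays. The windows run over 250 bases before and 50 after the annotated start, from RefSeq on GRCm38.p6, and capitals mark each match to TGCACNC or TGCGCNC on either strand.
Mt1, chr8:94178839-94179138, plus strand: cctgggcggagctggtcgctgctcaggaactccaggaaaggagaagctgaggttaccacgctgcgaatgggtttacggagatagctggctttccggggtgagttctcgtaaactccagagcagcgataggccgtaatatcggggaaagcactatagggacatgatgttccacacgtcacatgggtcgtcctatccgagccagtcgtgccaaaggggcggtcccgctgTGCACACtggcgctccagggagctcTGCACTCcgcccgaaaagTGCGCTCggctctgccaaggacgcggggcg
Mt2, chr8:94172368-94172667, plus strand: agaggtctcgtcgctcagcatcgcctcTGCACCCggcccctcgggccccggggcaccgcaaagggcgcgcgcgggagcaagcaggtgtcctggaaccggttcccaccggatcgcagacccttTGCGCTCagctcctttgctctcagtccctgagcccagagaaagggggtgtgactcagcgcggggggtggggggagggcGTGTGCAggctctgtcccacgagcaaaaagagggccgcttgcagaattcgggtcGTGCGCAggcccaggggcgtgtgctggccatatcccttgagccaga
Slc30a2, chr4:134343216-134343515, plus strand: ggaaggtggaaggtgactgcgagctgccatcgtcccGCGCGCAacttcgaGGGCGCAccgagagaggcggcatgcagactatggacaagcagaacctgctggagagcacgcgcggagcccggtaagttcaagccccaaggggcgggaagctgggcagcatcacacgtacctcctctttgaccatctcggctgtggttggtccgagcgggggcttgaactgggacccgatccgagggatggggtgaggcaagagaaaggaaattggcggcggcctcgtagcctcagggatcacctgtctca
The core occurred 3 times in the Mt1 window and 4 times in that of Mt2, whose windows start 6471 bp apart. Of 32851 promoters of this length, 1.97% held at least 3 matches, 0.517% at least 4 and 25.7% any. The Mt1 matches begin at -23, 3 and 21 relative to the start, and those of Mt2 at -223, -128, -50 and 5. Among the other genes, Slc30a4 held 3 matches, Slc30a1 and Slc30a2 held 2 each, Slc39a3 held 1, and Slc39a1, Slc39a2 and Slc25a1 held 0. A second word, the antioxidant response element core TGACNNNGC, occurred once each for Mt2, Slc39a1 and Slc30a1 and in 12.4% of all promoters. Each window follows the annotated start used here. Other starts of the same gene were not examined, so the window of Mt1, Mt2 or Slc30a2 may not be the promoter in use in the prostate. The counts and positions of matches hold only for the start used here. The matches describe letters in a window, and binding was not measured.

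Of the zinc exporters, Slc30a2 showed the widest differences and kept the order of arrays seen for the metallothioneins. Slc30a2 encodes ZnT2, which loads zinc into secretory vesicles and is best known for zinc secretion by the mammary gland. Its levels were 0.10 in TRAMP after γ-TmT, -0.97 in TRAMP after oil, 1.94 in C57BL/6 after γ-TmT and 1.52 in C57BL/6 after oil. It was 5.61-fold lower in TRAMP than in C57BL/6 after oil (-2.49 ± 0.18) and 3.57-fold lower after γ-TmT (-1.84 ± 0.21). Slc30a2 after γ-TmT was 2.10-fold higher than after oil in TRAMP (1.07 ± 0.18) and 1.34-fold higher in C57BL/6 (0.42 ± 0.20). The 2 TRAMP arrays were thus lower than the 2 C57BL/6 arrays, and all gaps were above the scanner error as reported. The γ-TmT difference in C57BL/6 was 0.14 with normexp, another background correction, which is within the scanner error. The unscaled signal in C57BL/6 was 450 after γ-TmT and 461 after oil, and in TRAMP it was 76.3 after γ-TmT and 70.9 after oil. The single spot of this probe lay where the scanner software had divided the signal of TRAMP after oil by 0.448, the correction for a trend across the slide. Without that correction the differences were -3.63 in TRAMP against C57BL/6 after oil and 2.22 for γ-TmT against oil in TRAMP, an alternative chosen after seeing the data.

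Slc30a1 encodes ZnT1, the exporter of the plasma membrane, which removes zinc from the cell. Its brighter probe (chr1:193736760-193736819, mm9) stood at 0.51 in TRAMP after γ-TmT, 0.03 in TRAMP after oil, 0.92 in C57BL/6 after γ-TmT and 0.68 in C57BL/6 after oil. This is again the same order, but the gap of 0.17 between C57BL/6 after oil and TRAMP after γ-TmT was within the scanner error. Differences stayed under 2-fold: -0.66 ± 0.20 in TRAMP against C57BL/6 after oil, -0.41 ± 0.20 after γ-TmT, 0.49 ± 0.21 for γ-TmT against oil in TRAMP and 0.24 ± 0.20 in C57BL/6. A second probe, starting 3167 bp away, gave -0.75 in TRAMP after γ-TmT, -1.55 in TRAMP after oil, -0.73 in C57BL/6 after γ-TmT and -0.29 in C57BL/6 after oil. It shared the low value of TRAMP after oil, but in C57BL/6 it was lower after γ-TmT than after oil, opposite to the brighter probe. With the mean of both probes the γ-TmT difference in C57BL/6 was -0.10.

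Slc30a4 encodes ZnT4, another vesicular exporter, needed for zinc in mouse milk. It stood at 3.03 in TRAMP after γ-TmT, 3.17 in TRAMP after oil and 2.71 in C57BL/6 after oil, and its only spot in C57BL/6 after γ-TmT was marked as not uniform and was left out. The TRAMP level after oil was higher than that of C57BL/6 by 0.46 ± 0.20, and γ-TmT against oil in TRAMP differed by -0.14 ± 0.20. Slc30a4 did not follow Slc30a2: after oil it was on the higher side in TRAMP. With the marked spot kept, TRAMP against C57BL/6 after γ-TmT was 0.12 and γ-TmT against oil in C57BL/6 was 0.20.

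The zinc importers differed little between arrays. Slc39a1 encodes Zip1, regarded as the main zinc uptake route of the human prostate cell, and its brighter probe stood at 1.82 in TRAMP after γ-TmT, 1.91 in TRAMP after oil, 2.11 in C57BL/6 after γ-TmT and 1.91 in C57BL/6 after oil. Its range over the 4 arrays was 0.29, and no 2 neighbouring arrays differed by more than the scanner error. The dimmer probe stood at 1.49 in TRAMP after γ-TmT, 1.17 in TRAMP after oil, 0.65 in C57BL/6 after γ-TmT and 0.78 in C57BL/6 after oil. That probe was higher in TRAMP than in C57BL/6 by 0.39 ± 0.20 after oil and by 0.84 ± 0.20 after γ-TmT, whereas the brighter probe differed by 0.00 ± 0.20 and -0.29 ± 0.20. As printed above, the dimmer probe lies on the strand opposite to the gene, 921 bp away, so only the brighter probe reads the Slc39a1 strand.

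Slc39a3 encodes Zip3, a zinc importer also known from mouse mammary cells. It stood at -1.17 in TRAMP after γ-TmT, -1.41 in TRAMP after oil, -0.70 in C57BL/6 after γ-TmT and -1.29 in C57BL/6 after oil. C57BL/6 after γ-TmT was the highest, and the other 3 arrays did not differ from their neighbours beyond the scanner error. The difference for γ-TmT against oil was 0.24 ± 0.21 in TRAMP and 0.59 ± 0.21 in C57BL/6. Slc39a2, which encodes Zip2, was not well above background on any array, so no fold is given for it.

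Slc25a1 encodes the mitochondrial citrate carrier, which moves citrate into the cytosol, where it can be secreted or split to make fatty acids. Its levels were 0.17 in TRAMP after γ-TmT, 0.71 in TRAMP after oil, 0.90 in C57BL/6 after γ-TmT and 0.76 in C57BL/6 after oil. The array of TRAMP after γ-TmT stood below the other 3, which did not differ from their neighbours beyond the scanner error. Slc25a1 was lower in TRAMP than in C57BL/6 by a log2 difference of -0.73 ± 0.21 after γ-TmT, against -0.05 ± 0.20 after oil. The γ-TmT difference of Slc25a1 was -0.54 ± 0.21 in TRAMP and 0.14 ± 0.20 in C57BL/6. It was thus the one of the 9 genes with its lowest level in TRAMP after γ-TmT among those measured above background on all 4 arrays, apart from Slc39a1, where the gaps were within error.

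**Figure D2:**
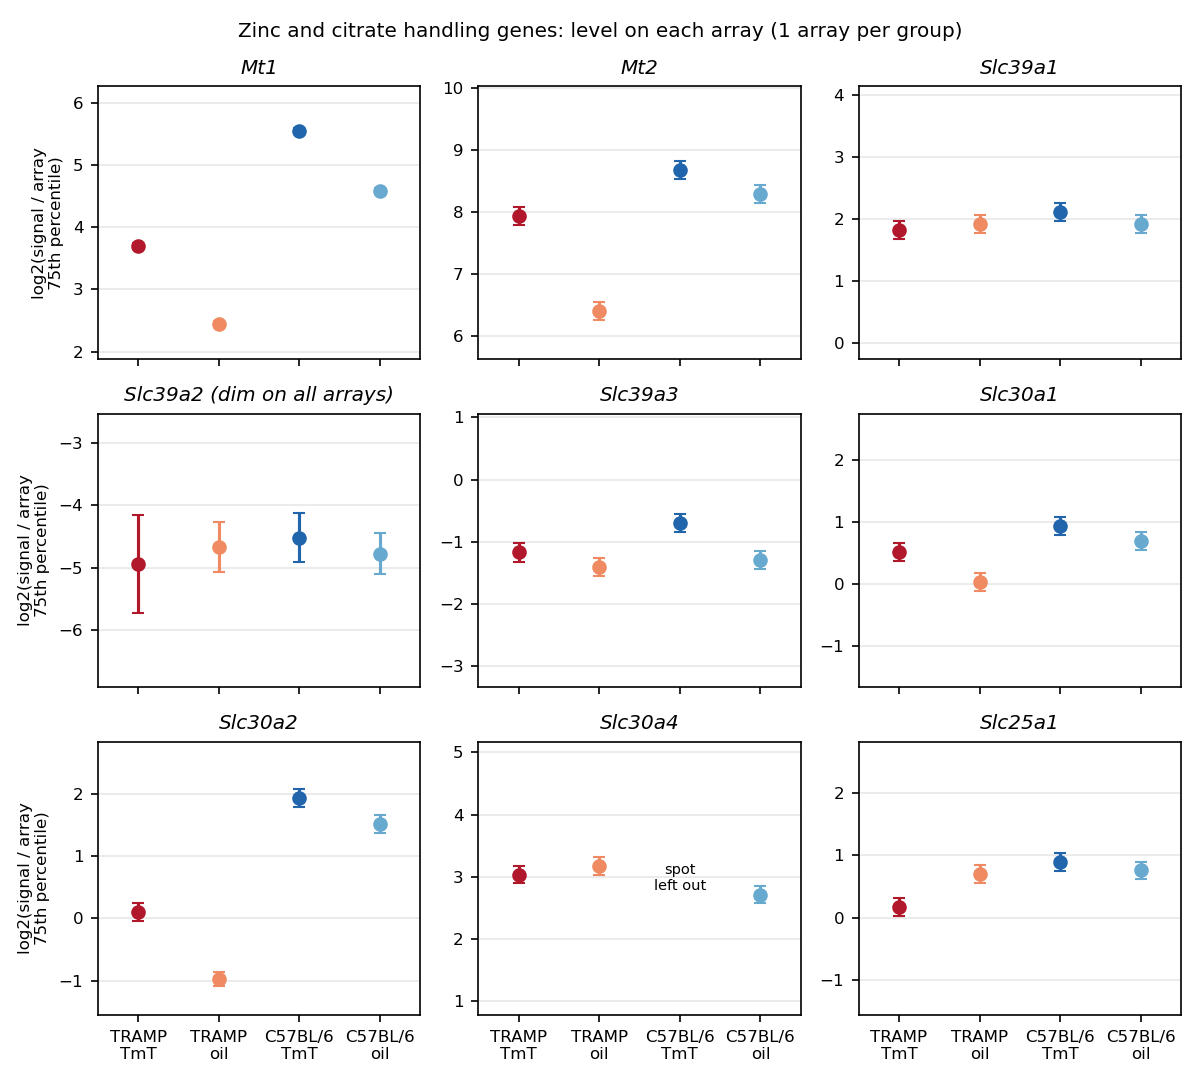
Level of each gene on each array (log2 signal over the array's 75th percentile, vertical axes of equal span), 1 array per group; bars are the scanner software's error of the spots, and 1 spot of Slc30a4 was left out. Mt1, Mt2 and Slc30a2 span 3.11, 2.28 and 2.90 units with TRAMP after oil lowest, while Slc39a1 spans 0.29.

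Set side by side, the 4 comparisons share arrays, so that they are not independent of each other. After oil, 3 of 8 measured genes were at least 2-fold lower in TRAMP than in C57BL/6 (Mt1, Mt2 and Slc30a2) and 0 were higher, where 15.6% of all 18900 measured genes were at least 2-fold different, 7.74% higher and 7.84% lower. The median difference of the 8 genes was -0.39, against -0.07 for all genes. Slc30a2 ranked among the lowest 0.423% of genes, Mt1 among the lowest 0.847% and Mt2 among the lowest 1.38%. After γ-TmT, 2 of 7 genes were at least 2-fold lower in TRAMP (Mt1 and Slc30a2), where 14.5% of all 17292 genes were different, 8.41% higher and 6.11% lower. All 7 lay below 0 there, with a median of -0.73 against 0.01 for all genes, but Slc39a1 turned to 0.28 with the mean over its probes.

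With γ-TmT against oil in TRAMP, 3 of 8 genes were at least 2-fold higher (Mt1, Mt2 and Slc30a2) and 0 were lower, where 13.5% of all 17428 genes were different, 8.67% higher and 4.86% lower. The median was 0.36, against 0.10 for all genes. Mt2 ranked among the highest 2.54% of genes, Mt1 among the highest 4.63% and Slc30a2 among the highest 7.35%. These folds include the scaling by the 75th percentile, 71.3 units in TRAMP after γ-TmT and 139 after oil. In unscaled signal each of the 3 genes was higher after γ-TmT by less than 2-fold. In C57BL/6, 0 of 7 genes reached 2-fold, where 5.78% of all 18719 genes did, 3.15% higher and 2.63% lower. All 7 lay above 0, with a median of 0.39 against 0.02 for all genes, and Mt1 ranked among the highest 3.50%. Of the 7, Slc25a1 turned to -0.07 with normexp, another background correction, and to -0.00147 without the correction for a trend across the slide, and Slc30a1 to -0.10 with the mean over its probes. TRAMP after oil was the lowest array for each of the 3 genes and enters both comparisons in which all 3 reached 2-fold.

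**Figure D3:**
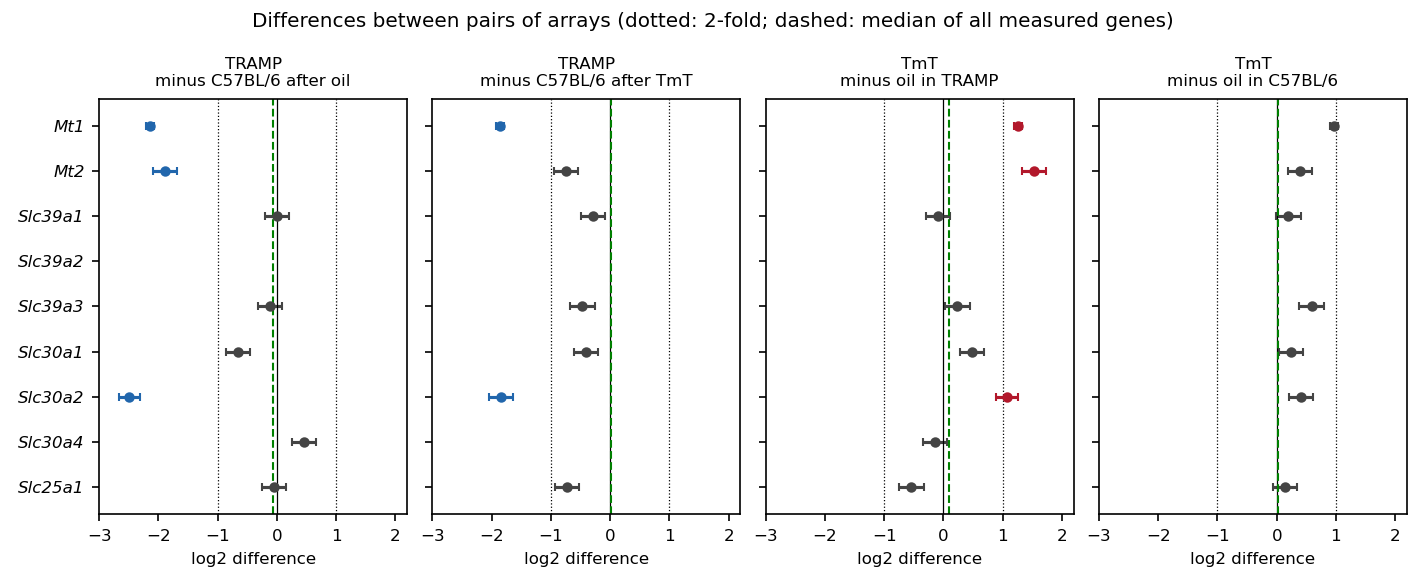
Log2 difference of each gene between pairs of arrays (horizontal axis), with the scanner software's error of the spots as bars; dotted lines mark 2-fold, the dashed line the median of all measured genes, and a gene with no point was not measured on both arrays. Mt1, Mt2 and Slc30a2 lie at -2.14, -1.89 and -2.49 in TRAMP against C57BL/6 after oil and at 1.25, 1.53 and 1.07 for γ-TmT against oil in TRAMP.

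Genotype and treatment were then fitted together over all 4 arrays with limma, an additive model. The error of a gene joined the disagreement between its 2 genotype differences with a prior spread estimated over all genes. That disagreement counted for 1 degree of freedom and the prior for 4.43, so the SE below came mostly from the prior. Of 19823 genes, 0% passed an adjusted p of 0.05 for genotype and 0% for treatment, with 2985 and 1236 genes at an unadjusted p under 0.05. None of the 7 genes fitted passed for genotype. The fitted TRAMP minus C57BL/6 difference was -2.00 ± 0.33 for Mt1 (SE, adjusted p = 0.0916) and -2.16 ± 0.35 for Slc30a2 (SE, adjusted p = 0.0916), each lower in 2 of 2 TRAMP arrays than in either C57BL/6 array. For Mt2 it was -1.32 ± 0.40 (SE, adjusted p = 0.241) and for Slc30a1 -0.53 ± 0.32 (SE, adjusted p = 0.487), and the other 3 genes had larger p. For γ-TmT minus oil the fitted differences were 1.11 ± 0.33 for Mt1, 0.96 ± 0.40 for Mt2 and 0.74 ± 0.35 for Slc30a2, each with an adjusted p of 0.779. Slc30a4, with 1 array missing, and Slc39a2, below background, were not in the fit. With normexp the fit gave every gene 1 common SE of 0.26 and called 6.94% of genes for genotype. There the same 3 genes passed for genotype, Mt1 with an adjusted p of 6.33e-13, Slc30a2 with 1.25e-10 and Mt2 with 5.87e-07, and 0 passed for treatment. Those p-values rest on the common SE and not on the spread of each gene, and they do not measure how mice vary. Over the other 9 alternative fits and the reported one, the adjusted p for genotype ranged between 0.0687 and 0.226 for Mt1 and between 0.0664 and 0.161 for Slc30a2.

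Slc30a2 was also among the 3 genes nearest to Mt1, which as reported has the widest range of the 9. Likeness was the root mean square distance between log2 levels centred over the 4 arrays, among 16874 genes above background on all arrays. The nearest was the transcript ENSMUST00000062980 (distance 0.182), whose probe lies beside that of Mt1 (chr8:96703844-96703903, mm9). It stood at -1.15 in TRAMP after γ-TmT, -2.46 in TRAMP after oil, 0.34 in C57BL/6 after γ-TmT and -0.13 in C57BL/6 after oil. Whether this probe reads Mt1 itself was not examined, so it may not stand for a gene apart from Mt1. Next came Phlda2, an imprinted gene that restrains placental growth (distance 0.205, with levels of -1.61, -2.44, 0.18 and -0.40 on the same arrays in the same order), and Slc30a2 (distance 0.221). Mt2 ranked 53rd (distance 0.409) and Slc30a1 1331st (distance 0.822). These distances rest on 4 arrays and are given as a description. The place of Slc30a2 depended on the correction for a trend across the slide at its spot: without it, Slc30a2 ranked 375th (distance 0.575) behind Mt2 at 66th (distance 0.383), and its range was 3.87, against 2.98 for Mt1.

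The levels of cell type markers differed between the arrays along with these genes. Fewer cells of a type and less RNA per cell cannot be told apart in such bulk samples. The summed level of the 15 markers of prostate secretory epithelium, in units of the 75th percentile, was 1113 in TRAMP after γ-TmT, 574 in TRAMP after oil, 1777 in C57BL/6 after γ-TmT and 1371 in C57BL/6 after oil. That is the order of arrays of Mt1, Mt2 and Slc30a2. Taken singly, 4 of the 14 markers above background on all 4 arrays stood in it, where 6.67% of all 16875 such genes did. The part of the secretory epithelium in the differences of the 3 zinc genes was not tested. Of 14 measured secretory markers, 8 were at least 2-fold lower in TRAMP than in C57BL/6 after oil and 7 after γ-TmT, with medians of -1.13 and -0.83. The shares over all genes were 7.84% and 6.11%, with medians of -0.07 and 0.01. In TRAMP, γ-TmT against oil showed 6 markers at least 2-fold higher and 2 lower, where 8.67% and 4.86% of all genes were. The median was 0.90, against 0.10 for all genes. In C57BL/6 none of the 14 markers reached 2-fold, where 5.78% of all genes did (medians of 0.24 and 0.02). The highest of them was the secreted protein gene Crisp1, at 2.93 after γ-TmT and -0.28 after oil in TRAMP (3.21 ± 0.20). After oil the epithelial protease gene Mmp7 was lower in TRAMP by a log2 difference of -5.12 ± 0.20.

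Other marker lists set the array of TRAMP after oil apart. The 13 adipocyte markers summed to 43.4 in TRAMP after γ-TmT, 277 in TRAMP after oil, 36.7 in C57BL/6 after γ-TmT and 55.4 in C57BL/6 after oil, with Lep below background on all 4. The 9 proliferation markers summed to 95.8 in TRAMP after γ-TmT, 204 in TRAMP after oil, 19.3 in C57BL/6 after γ-TmT and 19.1 in C57BL/6 after oil. The 8 fibroblast markers summed to 136 in TRAMP after γ-TmT, 73.9 in TRAMP after oil, 127 in C57BL/6 after γ-TmT and 152 in C57BL/6 after oil. TRAMP after oil was thus highest in fat and proliferation markers and lowest in fibroblast markers, as it was lowest in Mt1, Mt2 and Slc30a2. The 5 basal epithelial markers, at 21.2, 11.4, 22.4 and 27.7, and the 6 endothelial ones, at 6.72, 4.02, 7.38 and 7.86 on the arrays in the same order, were also lowest in TRAMP after oil. The part of these cell types in the zinc genes was not tested.

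**Figure D4:**
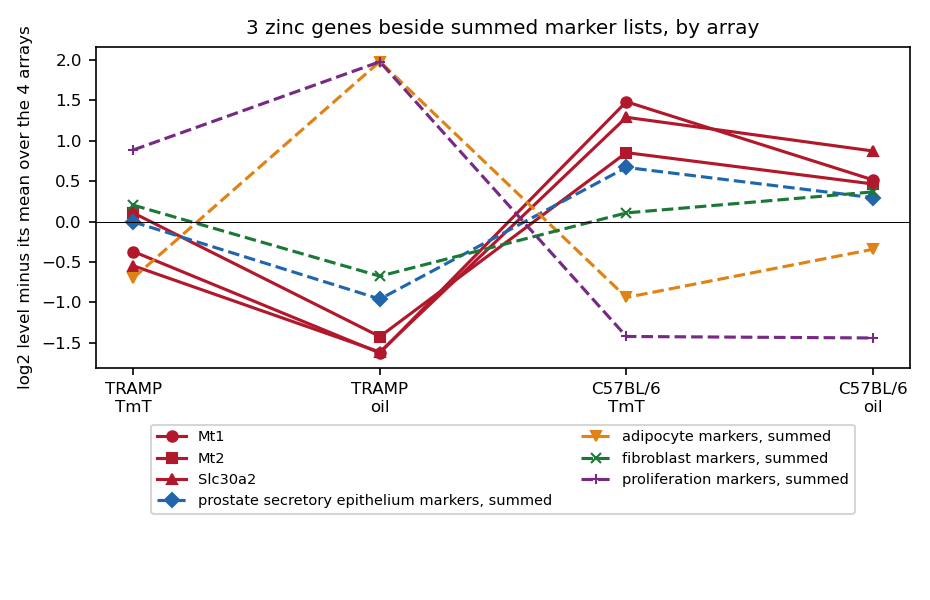
Log2 level of Mt1, Mt2 and Slc30a2 and of 4 summed marker lists, each minus its own mean over the 4 arrays (vertical axis), by array; lines only join the points. The secretory markers (sums of 1113, 574, 1777 and 1371 on the arrays from left to right) stand in the order of the 3 zinc genes, while adipocyte markers (43.4, 277, 36.7 and 55.4) peak in TRAMP after oil.

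The rest of the zinc transporters differed mostly by less than 2-fold. The order of arrays of Mt1 and Slc30a2 recurred in 3 of them, Slc39a6, Slc39a7 and Slc30a3, out of 7 Zip and 5 ZnT genes above background on all 4 arrays, where 6.67% of all 16875 such genes had it. In each of the 3, the order includes a gap between neighbouring arrays that was within the scanner error. Slc39a6 differed by 0.12 ± 0.20 for γ-TmT against oil in TRAMP, and Slc30a3 by 0.11 ± 0.22 in C57BL/6. Slc39a7, an importer that frees zinc from the endoplasmic reticulum, stood at 5.01 in TRAMP after γ-TmT, 4.30 in TRAMP after oil, 5.40 in C57BL/6 after γ-TmT and 5.14 in C57BL/6 after oil. Its differences in the 4 comparisons were above the scanner error and under 2-fold, the widest being -0.83 ± 0.20 in TRAMP against C57BL/6 after oil. The gap between C57BL/6 after oil and TRAMP after γ-TmT, which is not among the 4 comparisons, was within the scanner error. Of 11 other Zip genes, 9 were measured after oil. Of these, 2 were at least 2-fold lower in TRAMP than in C57BL/6 and 0 higher, where 7.84% and 7.74% of all genes were. The median of the 9 was -0.45 against -0.07 for all genes. The lowest was Slc39a9, an importer of the secretory pathway, at -1.43 in TRAMP and 0.06 in C57BL/6 after oil (-1.49 ± 0.19). The other was Slc39a10, an importer of the plasma membrane. Of the Zip genes, 0 of 7 in TRAMP and 0 of 9 in C57BL/6 reached 2-fold with γ-TmT against oil, and both medians were 0.12. The shares over all genes were 13.5% and 5.78%, with medians of 0.10 and 0.02. Of 7 other ZnT genes, 0 of 6 reached 2-fold in TRAMP against C57BL/6 after oil (median 0.09), and 0 of 5 after γ-TmT, where all 5 lay below 0 (median -0.63). Over all genes 15.6% and 14.5% did, with medians of -0.07 and 0.01. In TRAMP, 1 of 5 was at least 2-fold lower, with γ-TmT against oil, the Golgi transporter Slc30a7, at -0.57 after γ-TmT and 0.79 after oil (-1.36 ± 0.21), a direction opposite to that of Slc30a2. In that comparison 4.86% of all genes were at least 2-fold lower.

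Among 8 other metallothionein and metal genes, all measured, the medians were 0.27 in TRAMP against C57BL/6 after oil, 0.23 after γ-TmT, 0.07 for γ-TmT against oil in TRAMP and 0.08 in C57BL/6. The medians of all genes were -0.07, 0.01, 0.10 and 0.02 in the same comparisons. The metal importer gene Slc11a2 had levels of 1.12 in TRAMP and 2.95 in C57BL/6 after oil (-1.83 ± 0.16), and it was higher by 1.17 ± 0.16 with γ-TmT against oil in TRAMP. The iron exporter gene Slc40a1 was higher in TRAMP after oil by 1.53 ± 0.20. The gene of the zinc sensor, Mtf1, was higher in TRAMP than in C57BL/6 after γ-TmT by 0.60 ± 0.21, less than 2-fold. The 2 further metallothionein genes did not stand in the order of Mt1 and Mt2. In TRAMP against C57BL/6, Mt3 differed by -0.44 ± 0.21 after oil and by 0.32 ± 0.21 after γ-TmT. Mt4 was higher in TRAMP by 0.64 ± 0.21 after oil and by 0.36 ± 0.21 after γ-TmT.

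Genes of citrate use leaned low without a shift as wide as that of the metallothioneins. Of 32 citrate and TCA cycle genes, 27 were measured in TRAMP against C57BL/6 after oil (median -0.29, against -0.07 for all genes). Of these, 1 was at least 2-fold higher and 0 lower, where 7.74% and 7.84% of all genes were. The higher one was Acly, which splits citrate for lipid synthesis, at 4.11 in TRAMP and 2.75 in C57BL/6 (1.35 ± 0.20). It was also higher after γ-TmT, by 1.18 ± 0.20. There 4 of 28 genes were at least 2-fold lower, against 6.11% of all genes, and the median was -0.31 (0.01 for all genes). The lowest of these was Idh3b, a subunit of isocitrate dehydrogenase, at 1.52 in TRAMP and 3.12 in C57BL/6 (-1.60 ± 0.20). With γ-TmT against oil in TRAMP, 3 of 27 were at least 2-fold lower and 0 higher (median -0.19), Idh3b again the lowest (-2.04 ± 0.20). The shares over all genes were 4.86% lower and 8.67% higher (median 0.10). In C57BL/6, 1 of 28 was lower, the glutamate carrier gene Slc1a1 (-1.04 ± 0.21), and the median was -0.21. There 2.63% of all genes were at least 2-fold lower, and their median was 0.02. The plasma membrane citrate carriers Slc13a2, Slc13a3 and Slc13a5 were not well above background on any array.

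Glucocorticoids also raise metallothionein mRNA, and genes known to answer to them were described beside the members. Of 13 measured, 1 was higher and 1 lower by 2-fold or more in TRAMP against C57BL/6 after oil (median 0.15). The shares over all genes were 7.74% and 7.84% (median -0.07). The higher one of the 13 was Fkbp5, a co-chaperone of the glucocorticoid receptor, at 1.66 in TRAMP and -0.18 in C57BL/6 (1.84 ± 0.20). The lower one was Dusp1, a phosphatase gene, at 1.51 in TRAMP and 3.23 in C57BL/6 (-1.72 ± 0.20). In TRAMP the γ-TmT comparison had 2 genes higher and 2 lower (median -0.04), where 8.67% and 4.86% of all genes were (median 0.10). Among them were the NF-κB inhibitor gene Nfkbia, higher by 1.56 ± 0.17, and the lipase inhibitor gene Angptl4, lower by a log2 difference of -3.30 ± 0.18. In C57BL/6, 1 was higher, again Nfkbia (1.45 ± 0.21), with a median of 0.08, where 3.15% of all genes were (median 0.02). The part of glucocorticoids in the metallothionein differences was not tested.

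The size of the differences under other processing is plotted for the 4 genes that shared the order of arrays. Mt1, Mt2 and Slc30a2 lay below 0 in TRAMP against C57BL/6 and above 0 for γ-TmT against oil under each setting shown, while Slc30a1 turned to -0.10 in C57BL/6 with the mean of its probes.

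**Figure D5:**
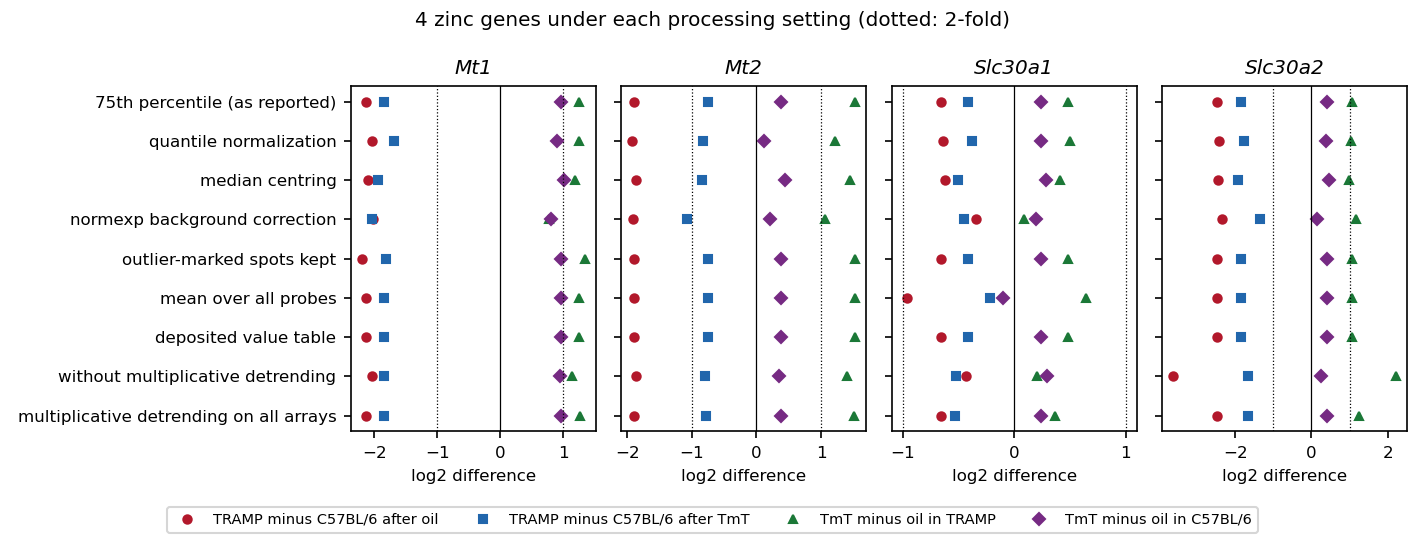
Log2 difference (horizontal axis) of Mt1, Mt2, Slc30a1 and Slc30a2 in the 4 comparisons under 9 processing settings (rows); dotted lines mark 2-fold. Slc30a2 in TRAMP against C57BL/6 after oil moves to -3.63 without the correction for a trend across the slide, and Mt1 stays between -2.20 and -2.03 in that comparison.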

How the data were processed

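Prostate RNA of 4 groups was hybridised to 1 array each and scanned once. The authors deposited, per the file headers, the processed signal of each spot as a linear intensity from Agilent Feature Extraction 10.2.1.3, subtracted for background and detrended within the array, with no scaling between arrays. Multiplicative detrending, which divides by a trend across the slide, was on for 3 arrays and off for TRAMP after γ-TmT, per the file headers. The deposited value table held the same intensity for all 45018 features of each array (medians of 13.8 for TRAMP after γ-TmT, 25.3 for TRAMP after oil, 21.3 for C57BL/6 after γ-TmT and 30.2 for C57BL/6 after oil), so it is linear and not centred.

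Here control spots and spots with an outlier mark were left out (178, 348, 207 and 131 spots in that order of arrays). Intensity was turned into log2 minus the log2 of the array's 75th percentile (71.3, 139, 118 and 161 units in that order), with the mean taken over repeated spots. Where a gene had several probes, the brightest one on average stood for it. Counts of 2-fold differences cover genes well above background on both arrays. The fit used limma 3.58.1 in R 4.3.3 (lmFit, eBayes, Benjamini-Hochberg over genes above background on at least 2 arrays), with 1 residual degree of freedom. An exact permutation test of 2 arrays against 2 cannot go below p = 0.333 (two-sided). A RefSeq accession matched 24844 of 41174 probes, and the gene names of the files were kept where none matched. Promoter sequences are RefSeq's (GRCm38.p6), probe positions those of the files (mm9).

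The rule named all 9 genes and, of each other list, the highest or lowest by difference, at most 3 a list, plus the 3 profiles nearest to that of the gene with the widest range. Slc39a6, Slc39a10, Mt3, Mt4, Dusp1, the Slc13a genes and Lep are named outside it, after their values were seen. The members and the gene lists were chosen with earlier results of these data known. Alternatives covered scaling (quantile, median), normexp with an offset of 50, no background filter, outlier-marked spots kept, the mean over probes, the deposited table, thresholds of 1.5-fold and 3-fold, a fit of 1 factor at a time and, added after seeing the data, the detrending.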

Additional observations from a re-analysis of the deposited data

Results flagged for a closer look

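The second probe of Slc30a1 went opposite ways with γ-TmT against oil in the 2 genotypes. It was higher by 0.80 ± 0.22 in TRAMP and differed by -0.44 ± 0.21 in C57BL/6 (scanner error, 1 array per group), and the difference between genotypes was not tested. Its spot lay where the scanner software had divided the signal of TRAMP after oil by 0.645 for a trend across the slide. Over 7 settings that bear on spots and scaling it ranged between 0.72 and 1.42 in TRAMP and between -0.48 and -0.24 in C57BL/6. The brighter probe of the gene gave 0.49 in TRAMP and 0.24 in C57BL/6.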

How the results depend on the processing

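Of 240 recomputed differences of single genes, 94 were identical to the reported value because the setting could not touch them (such as the deposited table, or the mean over probes for a gene with 1 probe). Of the other 146, 111 stayed within the scanner error and 35 moved beyond it. With a threshold of 1.5-fold, 4 genes differed in TRAMP against C57BL/6 after γ-TmT (2 at 2-fold), where 36.9% of all genes did, and 2 with γ-TmT in C57BL/6 (0 at 2-fold), where 20.8% did. At 2-fold there, median centring gave 1, Mt1 at 1.02. With a threshold of 3-fold, 0 differed with γ-TmT in TRAMP (3 at 2-fold), where 3.41% of all genes did. Normexp gave 3 genes past the threshold for genotype in the additive fit (0 as reported). It also brought Mt1 under 2-fold with γ-TmT in TRAMP (0.78) and Mt2 past it in TRAMP against C57BL/6 after γ-TmT (-1.07). Median centring put Slc30a2 with γ-TmT in TRAMP at 0.99. The cause of these moves was not tested beyond the change of setting itself. Over all genes the genotype calls of the fit numbered 0 as reported, 95 with median centring, 1376 with normexp, 36 with no filter on dim probes and 49 with detrending on all arrays. Treatment calls numbered 347 with normexp and 0 otherwise. Leaving out a replicate was not possible with 1 array per group. No paired analysis was possible because the labels give no replicate numbers and each group has 1 array. The number of arrays limits the precision, and a spot error does not cover differences between mice.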

Other observations

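The seminal vesicle secretion genes, markers of the gland that borders the prostate, were strong on all 4 arrays, and their sums stayed close. The 7 genes summed to 2197 in TRAMP after γ-TmT, 1837 in TRAMP after oil, 2047 in C57BL/6 after γ-TmT and 1858 in C57BL/6 after oil, in units of the 75th percentile. One of them, Sva, stood at 1.25 in TRAMP after γ-TmT, 4.88 in TRAMP after oil, 2.72 in C57BL/6 after γ-TmT and 4.09 in C57BL/6 after oil, lower with γ-TmT against oil by log2 differences of -3.62 ± 0.20 in TRAMP and -1.37 ± 0.20 in C57BL/6. Sva was thus lower after γ-TmT than after oil in both genotypes, where Mt1 was higher. Single genes moved more than the sums. With γ-TmT against oil in TRAMP, 2 of the 7 were at least 2-fold higher and 2 lower, against 8.67% and 4.86% of all genes. In C57BL/6, 0 were higher and 1 lower, against 3.15% and 2.63%.

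Skeletal muscle, smooth muscle and leukocyte markers did not stand in the order of Mt1. The 7 skeletal muscle markers summed to 202 in TRAMP after γ-TmT, 157 in TRAMP after oil, 266 in C57BL/6 after γ-TmT and 331 in C57BL/6 after oil. The 8 smooth muscle markers summed to 327, 262, 303 and 287 on the arrays in that order, and the 10 leukocyte markers to 8.91, 9.48, 10.6 and 13.4.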
